A study of Rattus norvegicus with 18 samples.

Results

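Expression of the enteroendocrine peptide hormone genes was examined along the large bowel of 9 rats (male, Sprague Dawley). The genes were Ghrl, Gcg, Pyy, Cck, Sst, Nts, Insl5, Gip and Sct, and every probe set that the array annotation gives to exactly 1 of these symbols was taken. Of the 9 genes, 8 had a probe set, each of them a single one, among 31042 probe sets that are not controls. No probe set carried the name Insl5 here, so that gene, an insulin-like peptide of colonic L cells, was not analysed. Of the 8 genes, 7 passed the filter on low signal and were tested among 11407 genes, and Nts did not pass it.

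The samples were 9 arrays of proximal colon and 9 arrays of distal colon, 1 of each from every rat, numbered 1 to 8 and 10. All rats had been fed modified AIN-93G for 10 days, had then been injected subcutaneously with azoxymethane, a colon carcinogen that alkylates DNA, at 15 mg per kg, and had been killed 6 h later. Mucosa was scraped from 4 cm of each region, so the samples hold epithelium together with whatever lay beneath it. Both regions had the injection, no untreated rat was among these samples, and the labels used here do not give the allocation groups that the design describes.

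Enteroendocrine cells are scattered hormone-secreting cells of the gut epithelium that sense the contents of the lumen. Classically, L cells release the glucagon-like peptides, cut from the product of Gcg, together with peptide YY, D cells release somatostatin, N cells neurotensin, I cells cholecystokinin, K cells the glucose-dependent insulinotropic polypeptide and S cells secretin, while ghrelin is best known from the stomach. L cells are the most abundant of these types in the large bowel, and I, K and S cells belong mainly to the upper small intestine. Somatostatin and several other gut peptides are also made by enteric neurons.

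The sequences just before the transcription starts of Ghrl, Gcg, Pyy and Sst are shown because these 4 genes had the largest differences between the regions among the hormone genes tested, and they were read from RefSeq (GRCr8). They cover 250 bases before the start, at chr4:148425225-148425474 (minus strand) for Ghrl, chr3:67531534-67531783 (minus strand) for Gcg, chr10:87562471-87562720 (minus strand) for Pyy and chr11:90461296-90461545 (plus strand) for Sst. Capitals mark the TATA box letters TATAAA and the E-box letters CANNTG, searched on both strands in the 300 bases from 250 before to 50 after the start.
Ghrl: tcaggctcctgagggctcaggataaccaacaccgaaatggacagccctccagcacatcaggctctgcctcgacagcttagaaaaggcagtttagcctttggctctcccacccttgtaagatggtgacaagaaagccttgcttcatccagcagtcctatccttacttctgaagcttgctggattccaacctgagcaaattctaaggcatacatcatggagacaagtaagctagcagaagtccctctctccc
Gcg: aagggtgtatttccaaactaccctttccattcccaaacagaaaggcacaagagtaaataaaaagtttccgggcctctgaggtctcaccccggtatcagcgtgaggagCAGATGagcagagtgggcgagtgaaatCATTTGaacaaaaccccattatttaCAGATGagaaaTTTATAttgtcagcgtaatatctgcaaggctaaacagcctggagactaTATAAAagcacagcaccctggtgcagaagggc
Pyy: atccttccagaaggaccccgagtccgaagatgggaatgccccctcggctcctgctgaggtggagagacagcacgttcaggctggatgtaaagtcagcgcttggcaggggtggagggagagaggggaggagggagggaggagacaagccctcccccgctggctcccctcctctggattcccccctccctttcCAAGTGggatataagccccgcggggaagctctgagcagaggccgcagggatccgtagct
Sst: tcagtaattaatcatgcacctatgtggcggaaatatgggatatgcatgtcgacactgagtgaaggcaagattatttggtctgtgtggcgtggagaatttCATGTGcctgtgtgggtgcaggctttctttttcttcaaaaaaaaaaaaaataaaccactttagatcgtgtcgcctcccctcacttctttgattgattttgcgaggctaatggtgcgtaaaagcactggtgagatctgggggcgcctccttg
Gcg had 2 matches to TATAAA and 4 to CANNTG, of which 3 lie in the stretch printed, and 2 of those 3 read CAGATG. Of 33469 rat promoters of the same length, TATAAA occurred in 14.2% and CANNTG in 72.1%. Pyy and Sst each had 1 E-box match before the start, and the stretch printed for Ghrl had none. The cAMP response element letters TGACGTCA, present in 1.83% of promoters, were found for Sst just after the annotated start and in no other of the 7 hormone genes with a promoter in the table. These matches are a description of the letters and say nothing about binding.

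Before the results, 3 arrays need to be named. The mean log2 signal of 12 smooth muscle markers was 12.24 in the proximal array of rat 3, and in distal colon it was 9.98 in rat 3 and 9.91 in rat 7. Over the regions it ran from 6.91 to 12.24 in proximal and from 6.68 to 9.98 in distal colon. The mean of the enteric neuron markers was 7.47 in the proximal array of rat 3, against 5.27 to 5.58 in the proximal arrays other than those of rats 3 and 6 and 5.18 to 5.57 in distal colon. The proximal arrays of rats 3 and 6 also had the lowest means of the luminal nutrient sensors, at 5.66 and 5.93, whereas the remaining proximal arrays ran from 6.34 to 6.62. Epithelial markers such as Epcam and Krt8 had list means of 12.71 to 13.01 in proximal and 12.72 to 12.87 in distal colon. The deposited signals were not scaled to a common level, and quantile-normalized log2(signal + 16) values are used unless deposited signals are named.

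The comparison of the regions asks which hormone genes had different RNA levels in the scrapings of the 2 regions. Of the 7 tested, 5 were higher on the proximal side and 0 on the distal side (limma, adjusted p below 0.05). The same counts, 5 and 0, were reached at an unadjusted p below 0.05. Of all genes tested, 30.8% passed, with 14.5% higher in proximal and 16.2% in distal colon. These shares stand for 1657 and 1853 genes, and with the deposited scaling the numbers were 1552 for proximal and 451 for distal colon, while the hormone counts stayed at 5 and 0. Ghrl was at least 10.9-fold higher in proximal colon, a bound because all 9 distal arrays lay below the level of the low-signal filter. It counts among the 5 but was tested only because of its signal in proximal colon. The hormone genes were chosen with earlier results of these data known. Gcg was 3.51-fold higher, Sst 2.77-fold and Pyy 2.17-fold. Sct was 1.21-fold higher, and Cck and Gip did not pass. In difference toward proximal colon among the 11407 genes, Gcg ranked 54, Sst 92 and Pyy 187, whereas Sct ranked 2056. In scrapings, fewer cells of a type and less RNA per cell cannot be told apart.

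**Figure D1:**
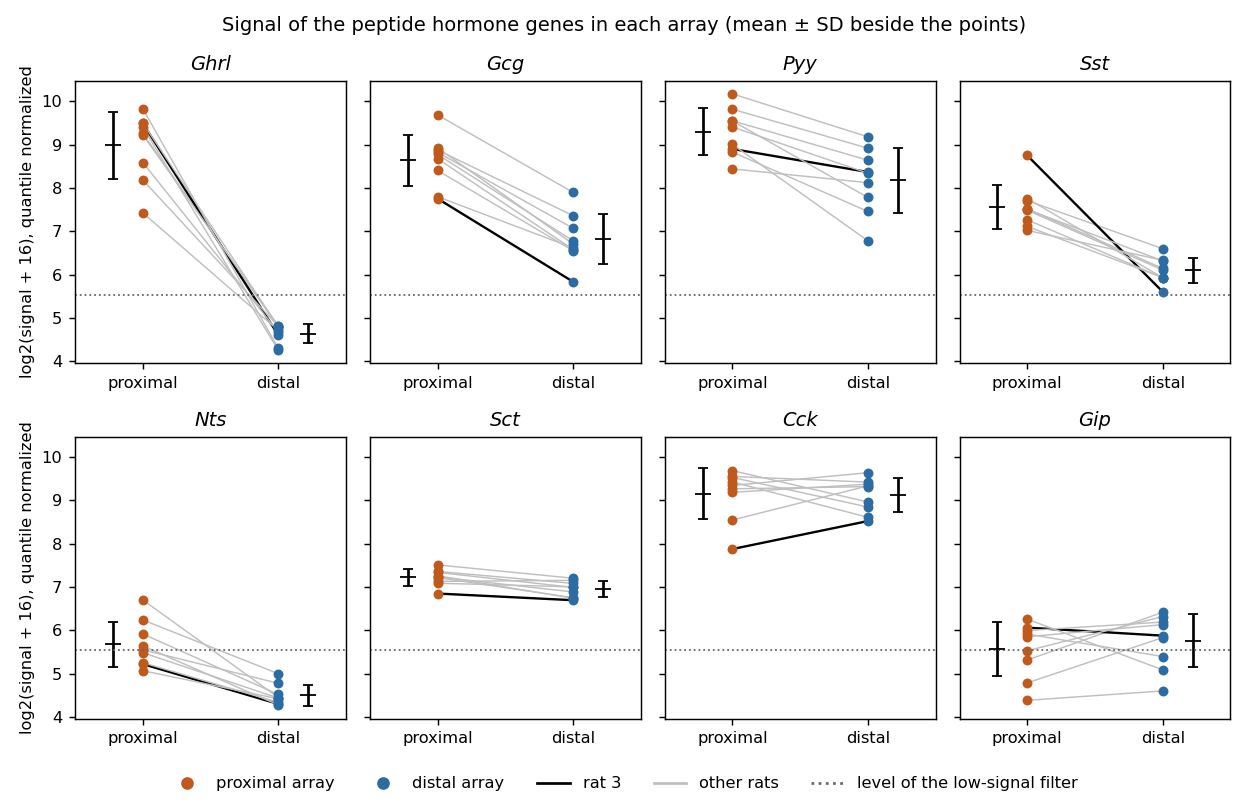
Quantile-normalized log2(signal + 16) of each hormone gene in the 9 proximal (left) and 9 distal (right) arrays, with a line for each rat, mean ± SD beside the points and the level of the low-signal filter dotted. The proximal and distal arrays do not overlap for Ghrl, Sst and Nts. Among the genes tested, which do not include Nts, 3.67% had such a separation with proximal colon higher. All 9 distal arrays of Ghrl and of Nts, and 4 proximal arrays of Nts, are below the dotted level, where the order of values was not measured. The proximal array of rat 3 (black line) stands above all others for Sst.

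Gcg encodes proglucagon, the precursor of the glucagon-like peptides. Its log2 signal had a lowest, median and highest value of 7.76, 8.78 and 9.69 in proximal colon, and of 5.84, 6.71 and 7.90 in distal colon. On the deposited scale these were 204, 479 and 715 in proximal colon and 38.3, 92.3 and 232 in distal colon. The ranges overlapped only because the highest distal array, that of rat 1, exceeded the lowest proximal arrays, those of rats 3 and 10. The means were 8.64 ± 0.59 in the proximal and 6.82 ± 0.58 in the distal arrays (SD, n = 9 each). The difference was 1.81 ± 0.25 on the log2 scale (SE; limma adjusted p = 2.19e-05). It was positive in 9 of 9 rats, from 2.27-fold in rat 10 to 4.65-fold in rat 4, a narrower range of folds than those of Pyy and Sst. An exact permutation of the signs of the rats' differences gave p = 0.00391, the smallest value 9 rats allow (two-sided).

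Pyy encodes peptide YY, which slows intestinal transit and fluid secretion. It was high in both regions, with a lowest, median and highest log2 signal of 8.44, 9.41 and 10.17 in proximal and 6.78, 8.34 and 9.18 in distal colon. The deposited signals were 320, 658 and 1061 in proximal colon and 95.9, 263 and 600.5 in distal colon. The groups overlapped widely, yet the proximal array was above the distal array in 9 of 9 rats. The means were 9.30 ± 0.54 in the proximal and 8.18 ± 0.75 in the distal arrays (SD, n = 9 each), with a difference of 1.12 ± 0.28 (SE; limma adjusted p = 0.00549; exact permutation p = 0.00391). Fold differences within rats ran from 1.25 in rat 10 to 4.67 in rat 7, whose distal array was the lowest of all.

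Ghrl encodes the precursor of ghrelin, a hormone that stimulates appetite and growth hormone release. Its lowest, median and highest log2 signals were 7.43, 9.26 and 9.83 in proximal colon, against 4.26, 4.72 and 4.82 in distal colon. As deposited, the signals were 167, 614 and 822 in proximal colon and 2.53, 9.57 and 13.3 in distal colon. The groups did not overlap, and all 9 distal arrays lay below the filter level of 5.54, so the gene was tested only because of its signal in proximal colon. Among the genes tested, 3.67% had regions that did not overlap with proximal colon higher, and 3.22% with distal colon higher. The means were 8.99 ± 0.77 in the proximal and 4.64 ± 0.22 in the distal arrays (SD, n = 9 each). The fitted difference was 4.35 ± 0.25 (SE; limma adjusted p = 2.26e-10), but its size depends on the pseudocount: it was 5.70 with a pseudocount of 1 and 2.95 with 64. Setting every distal array to the filter level gave a proximal signal at least 10.9-fold higher. Within rats this bound ran from at least 3.70-fold in rat 4 to at least 19.5-fold in rat 5, so proximal colon was higher in 9 of 9 rats. Distal values of Ghrl below that level have no order, and nothing is read from how they vary among rats.

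Sst encodes somatostatin, which restrains the release of other hormones and is made by D cells and by enteric neurons. Its log2 signals had a lowest, median and highest value of 7.02, 7.51 and 8.75 in proximal colon, against 5.61, 6.11 and 6.60 in distal colon. Deposited signals were 117, 178 and 469 in proximal colon and 30.5, 49.4 and 78.3 in distal colon. The groups did not overlap, as for 3.67% of the genes tested with proximal colon higher. The highest proximal value, 8.75, was that of rat 3, and the other proximal arrays ran from 7.02 to 7.76. The array of rat 3 is the one with the high smooth muscle and neuron marker means. The means were 7.57 ± 0.51 in the proximal and 6.10 ± 0.29 in the distal arrays (SD, n = 9 each), and the difference was 1.47 ± 0.18 (SE; limma adjusted p = 6.23e-06; 9 of 9 rats). Without rat 3 the difference was 1.27 (adjusted p = 8.02e-07), and without the 3 arrays of highest smooth muscle signal it was 1.23 (adjusted p = 2.64e-06).

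Nts encodes neurotensin, known for effects on motility and fat absorption. Its mean signal was below the filter, so it was not part of the main test. The lowest, median and highest log2 signals were 5.07, 5.55 and 6.70 in proximal colon and 4.28, 4.44 and 5.00 in distal colon. The deposited signals were 19.2, 32.3 and 102 in proximal colon, against 2.72, 4.97 and 17.4 in distal colon. The groups did not overlap, but all 9 distal arrays and 4 of the 9 proximal arrays were below the filter level. The highest proximal value was that of rat 6. The means were 5.67 ± 0.53 in the proximal and 4.50 ± 0.24 in the distal arrays (SD, n = 9 each), a difference of 1.17. In 5 of 9 rats the proximal array was above the filter level with the distal array below it, and in the other 4 both arrays were below it, so that their order was not measured. When no filter was applied, its adjusted p in limma was 0.000124. That value rests on signals below the filter level and is not read as support for a difference. With the distal arrays set to the filter level and the proximal signals kept, the fold was 1.10. Within rats it ran from 0.72 in rat 4 to 2.23 in rat 6. Since 4 proximal arrays were themselves below that level, 1.10 is not a lower bound, and little of the fold can be measured.

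Sct encodes secretin, which stimulates bicarbonate secretion. Its signals lay close together, at a lowest, median and highest log2 value of 6.85, 7.23 and 7.51 in proximal and 6.69, 6.99 and 7.20 in distal colon. The groups overlapped. The means were 7.22 ± 0.19 in the proximal and 6.94 ± 0.19 in the distal arrays (SD, n = 9 each), and proximal colon was higher in 8 of 9 rats, rat 6 being the exception at a difference of -0.02. The difference of 0.27 ± 0.10 (SE) passed narrowly (limma adjusted p = 0.0402; exact permutation p = 0.00781). It did not pass without rat 1, 2, 4, 5, 7, 8 or 10 (adjusted p from 0.0506 to 0.102), without a filter (0.0631) or with arrays centred on their medians (0.0514). With rat as a block the adjusted p was 0.0186.

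Cck encodes cholecystokinin, which drives gallbladder contraction and satiety. It had clear signal in both regions, with a lowest, median and highest log2 value of 7.88, 9.34 and 9.69 in proximal and 8.52, 9.32 and 9.64 in distal colon. The low proximal values were those of rats 3 and 6, at 7.88 and 8.55, and the other proximal arrays were at 9.19 or above. The difference was 0.04 ± 0.21 (SE; limma adjusted p = 0.906), with a 95% interval from -0.40 to 0.49, and proximal colon was higher in 4 of 9 rats. Without the proximal arrays of rats 3 and 6 the difference was 0.31 (limma adjusted p = 0.129). Leaving out these low values was bound to raise the difference, so nothing is read from that change. Gip encodes the incretin of K cells. Its signals were near the filter level, with a lowest, median and highest log2 value of 4.38, 5.85 and 6.26 in proximal and 4.60, 5.88 and 6.42 in distal colon, and 4 proximal and 3 distal arrays were below that level. The difference was -0.19 ± 0.27 (SE; limma adjusted p = 0.647), with a 95% interval from -0.77 to 0.38. Neither interval shows that the regions were equal, and for Gip the signal itself was close to the lower end of what was tested.

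**Figure D2:**
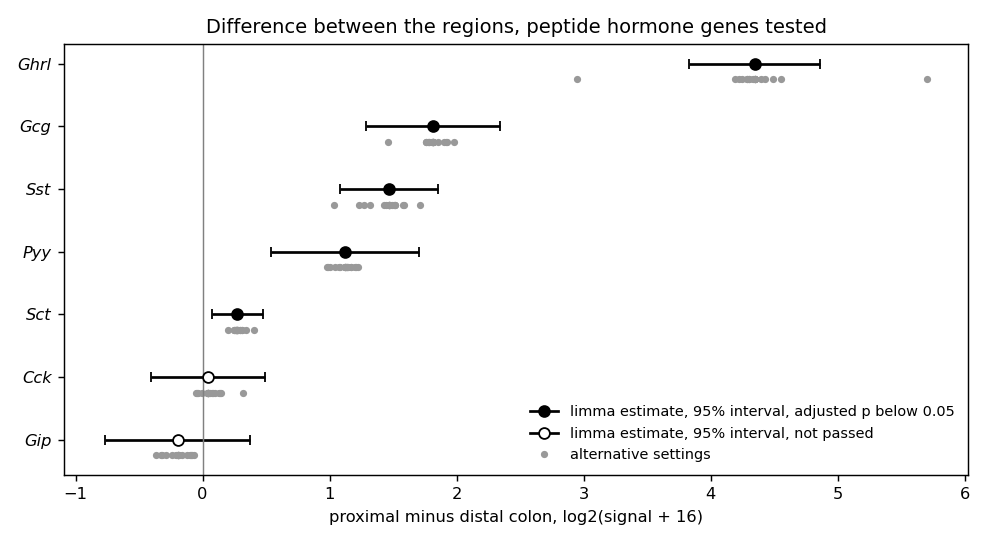
Proximal minus distal difference of the 7 hormone genes tested, on the log2(signal + 16) scale, with limma's 95% interval (black) and the values under the alternative settings (grey). Ghrl, Gcg, Sst and Pyy lie to the right of 0 under all alternatives, Sct stays positive but close to 0, and the intervals of Cck and Gip span 0. Ghrl was tested only because of its signal in proximal colon. The grey points of Ghrl at 2.95 and 5.70 are those of the other pseudocounts.

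Several hormone genes varied more between the arrays of a region than the median gene, whose SD was 0.22 in proximal and 0.21 in distal colon. With 1 array per rat and region, differences between rats, scrapings and arrays cannot be told apart in these SDs. Ghrl had an SD of 0.77 in proximal colon, and its distal values are not read. Sst had an SD of 0.51 in proximal colon, where rat 3 stood above all other arrays, and 0.29 in distal colon. The SD of Pyy was 0.54 in proximal and 0.75 in distal colon, and that of Gcg was 0.59 in proximal and 0.58 in distal colon. Cck had an SD of 0.58 in proximal and 0.39 in distal colon, and Gip 0.63 in proximal and 0.61 in distal colon. The low proximal values of Cck were those of rats 3 and 6, and 4 proximal and 3 distal arrays of Gip were below the filter level. The SDs were not compared with those of genes of like signal. Sct, at 0.19 in each region, did not exceed the median gene.

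The signals of a gene in the proximal and the distal array of a rat were set against each other. Over 9 rats, the proximal and the distal signal of Gcg had a Pearson's r of 0.86 (exact permutation p = 0.00573, two-sided, adjusted p = 0.0401 over the 7 hormone genes tested) and Spearman's rho of 0.85 (exact p = 0.00607, adjusted p = 0.0425). With the 2 rats of most extreme proximal signal left out (those farthest from its median), r was 0.88. Rat 1 had the highest Gcg in both regions and rat 3 the lowest in both. With rats 3 and 6 left out, r was 0.81 with an adjusted p of 0.212 (exact, n = 7), and with arrays centred on their medians r was 0.84 and the adjusted p 0.0505. For Pyy the correlation was 0.62 (exact p = 0.0742, adjusted p = 0.260) with a rho of 0.70 (exact p = 0.0433, adjusted p = 0.151), and r was 0.64 without the 2 farthest rats. With the deposited scaling Pyy had an r of 0.77 (exact adjusted p = 0.0531) and a rho of 0.90 (exact adjusted p = 0.0142), and Gcg an r of 0.85 (exact adjusted p = 0.0226) and a rho of 0.75 (exact adjusted p = 0.0892). Whether Gcg and Pyy differ in this was not tested. Cck, Sst, Gip and Sct had r from -0.47 for Sst to 0.56 for Sct (exact, adjusted p of 0.262 or above), and the value of Ghrl, whose distal signals have no order, is not read. These relations were added after the values had been seen.

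Within a region, 42 relations between hormone genes were computed, 21 in each region, and 0 passed after adjustment, while 5 had an unadjusted exact p below 0.05. The 6 relations with Ghrl in distal colon count in the adjustment but are not read, and none of them is among those 5. In proximal colon Gcg and Pyy, both products of L cells, had an r of 0.85 (exact permutation p = 0.0044, adjusted p = 0.0924) and a rho of 0.77 (exact p = 0.0214, adjusted p = 0.327). Their r was 0.76 without the 2 farthest arrays and 0.87 over the 7 proximal arrays other than those of rats 3 and 6 (exact adjusted p = 0.147). In distal colon the same genes had an r of 0.47 (exact p = 0.197, adjusted p = 0.495). Gcg and Sst had an r of 0.90 in distal colon (exact p = 0.00226, adjusted p = 0.0924), which was 0.58 without the 2 farthest arrays. Cck ran opposite to Sst in proximal colon, with an r of -0.87 (exact p = 0.00759, adjusted p = 0.0932) and a rho of -0.85 (exact p = 0.00607, adjusted p = 0.255). That r was -0.92 without rats 3 and 6 (exact adjusted p = 0.117). Without the 2 farthest arrays it was -0.37 with the deposited scaling and -0.66 with arrays centred on their medians. Sct followed Cck and opposed Sst in proximal colon (r of 0.81 and -0.80), but without rats 3 and 6 these values were 0.38 and -0.47. With arrays centred on their medians, 2 relations passed, those of Gcg with Pyy in proximal and with Sst in distal colon (exact adjusted p = 0.0490 for each).

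**Figure D3:**
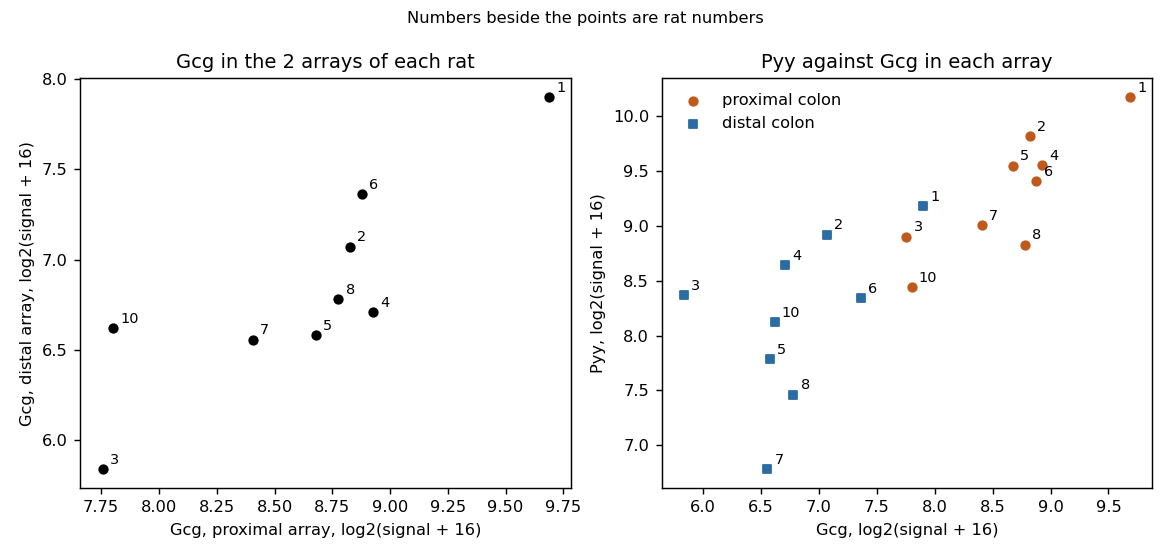
Left, log2(signal + 16) of Gcg in the distal array (vertical) against the proximal array (horizontal) of each of 9 rats. Right, Pyy (vertical) against Gcg (horizontal) in the 9 proximal arrays (circles) and 9 distal arrays (squares), with rat numbers beside the points. Rat 1 is highest for Gcg in both regions, and within proximal colon the arrays with more Gcg also tend to have more Pyy (r = 0.85, adjusted p = 0.0924).

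Genes whose signal ran most like that of a hormone gene were ranked by Pearson's r over the 18 arrays, given as a description since all values share the same arrays and the difference between the regions. For Gcg they were Fnip2 (0.94), Neurod1 (0.94) and Klk8 (0.93), and for Ghrl they were Saa3 (0.98), Fabp1 (0.98) and Hsd17b6 (0.97), where all 9 distal values of Ghrl lie below the filter level. After the mean of each region was subtracted, the nearest genes to Pyy were Pycard (0.86), Neurod1 (0.85) and Cd55 (0.83). For Cck they were Apobec1 (0.97), Vamp8 (0.94) and F2rl1 (0.93), and for Sst they were Zfhx3 (0.85), Scg5 (0.83) and Slc2a13 (0.82). Without the proximal array of rat 3, in which Sst and Scg5 both had their highest signal, these values were 0.63 for Zfhx3, 0.53 for Scg5 and 0.66 for Slc2a13. The nearest gene to Sct was Card19 (0.91). For Gip it was Nr1d1 (0.81), with 4 proximal and 3 distal values of Gip below the filter level, and for Ghrl none is given within regions.

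Other genes of enteroendocrine cells were read against the same backgrounds of 14.5% and 16.2%, and against a median difference of -0.01 over all genes tested. Of 7 tested transcription factors of the enteroendocrine lineage, 3 were higher and 2 lower in proximal colon (median difference 0.55). Neurod1, which drives late endocrine differentiation, was 3.51-fold higher, with means of 8.12 ± 0.40 in the proximal and 6.31 ± 0.43 in the distal arrays (SD, n = 9 each; limma adjusted p = 4.59e-07; 9 of 9 rats). Fev, a factor of serotonin cells, was 1.84-fold higher and Pax4 1.78-fold. Foxa2, which also acts in goblet cells, was 2.65-fold lower in proximal colon, and Hhex, known in mouse for somatostatin cells of the pancreas, was 3.12-fold lower. With no filter applied, 5 of these factors were higher in proximal colon, and with the lowest 50% of probe sets left out 1 was. Of 8 tested genes of hormone granules and serotonin handling, 4 were higher and 0 lower (median 0.60), Chga, Chgb, Slc18a1 and Ddc.

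Hormone precursors are cut and modified before release. Of 7 tested genes of these steps, 2 were higher and 1 lower in proximal colon (median difference 0.50), and Pcsk1 and Mboat4, the acylating enzyme of ghrelin, had no named probe set here. Scg5, a chaperone of a prohormone convertase, was 1.61-fold higher in proximal colon (adjusted p = 0.0110), with its highest signal, 7.82, in the array of rat 3. Without rat 3 the difference was 0.51 (adjusted p = 0.00575). Pam, which amidates peptides such as peptide YY and cholecystokinin, was 1.69-fold lower in proximal colon (adjusted p = 2.13e-07; 0 of 9 rats higher). Tpst2, which sulfates tyrosines, was 1.14-fold higher at the edge of the threshold and lost its call under 13 of 19 alternatives. Among them were leaving out rat 1, 2, 4, 5, 6, 7 or 10 and the deposited scaling (adjusted p = 0.119). With rat as a block 3 genes were higher. Cpe, which trims the ends of peptides, had a difference of 1.16 that did not pass (adjusted p = 0.0694), and Furin one of -0.10 (adjusted p = 0.540).

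Enzymes that break down peptide hormones differed in both directions, with 2 of 8 higher and 3 lower in proximal colon (median difference -0.17). Dpp4, which inactivates glucagon-like peptides and trims peptide YY, had means of 9.28 ± 0.53 in the proximal and 10.69 ± 0.28 in the distal arrays (SD, n = 9 each). It was 2.66-fold lower in proximal colon in 9 of 9 rats (limma adjusted p = 8.14e-06). Mme, also called neprilysin, was 3.02-fold lower (adjusted p = 7.64e-07), and Enpep 1.21-fold lower near the threshold (adjusted p = 0.0469). With the deposited scaling, with no filter, or without any rat other than rat 3, 2 genes of this list were lower in proximal colon, and without rat 3 there were 4. Ace, the angiotensin-converting enzyme, was 3.38-fold higher in proximal colon (adjusted p = 7.62e-06) and Ece1 1.35-fold (adjusted p = 0.000374). Ide, the insulin-degrading enzyme, had a difference of 0.07 (adjusted p = 0.383).

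Receptors of these hormones were mostly at low signal. Of 22 listed, 19 had a probe set and 8 were tested, while 11, among them Glp1r, Glp2r, Npy1r and Npy2r, were below the filter. Of the 8, 1 was higher and 2 lower in proximal colon (median difference -0.05). Sstr1, a somatostatin receptor, had a lowest and highest log2 signal of 7.37 and 10.06 in proximal colon against 10.54 and 11.30 in distal colon, and was 4.03-fold lower in proximal colon (adjusted p = 7.83e-05; 9 of 9 rats). Without the proximal arrays of rats 3 and 6 the difference was -1.61. Sstr5, another somatostatin receptor, was 1.45-fold higher in proximal colon (adjusted p = 0.00938), and Sort1, which also binds neurotensin, was 1.59-fold lower (adjusted p = 1.48e-07).

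Among luminal nutrient sensors, 11 of 16 had no named probe set here, and of 4 tested, 3 were lower and 0 higher in proximal colon (median difference -0.75). These were Slc15a1, the peptide transporter (4.58-fold lower), Casr, the calcium-sensing receptor (1.79-fold), and Slc5a1, the sodium-glucose cotransporter (1.58-fold). The lowest proximal value of Slc15a1, 4.77, was below the filter level. Its log2 difference ran from -2.48 to -1.65 under the alternatives. Ffar2, a receptor of short-chain fatty acids, differed by 0.41 (adjusted p = 0.163). Of 13 other gut peptides tested, 1 was higher and 4 lower in proximal colon (median difference 0.20). Guca2a, guanylin, was 1.37-fold higher. Adm, adrenomedullin (2.37-fold), Nmu, neuromedin U (2.14-fold), Npy, neuropeptide Y (1.81-fold), and Guca2b, uroguanylin (1.79-fold), were lower in proximal colon. Without the proximal arrays of rats 3 and 6, 3 peptides of this list were higher in proximal colon. Adm, Nmu, Npy and Guca2b stayed lower there and past the threshold under all 19 alternatives.

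**Figure D4:**
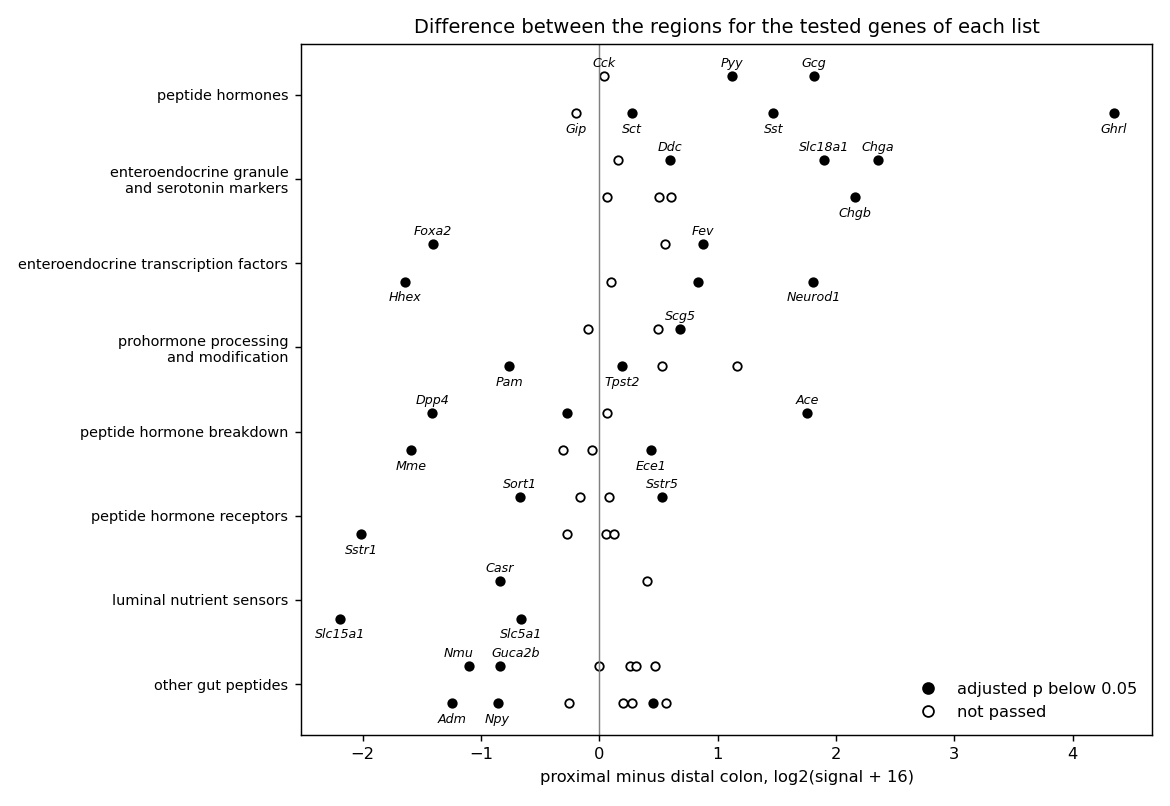
Proximal minus distal difference on the log2(signal + 16) scale for each tested gene of the hormone, granule, transcription factor, processing, breakdown, receptor, nutrient sensor and other peptide lists, filled where the limma adjusted p was below 0.05. Hormones and granule genes that passed lie to the right of 0, those of the nutrient sensors to the left, and the other lists hold genes on both sides.

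Markers of other cells in the scrapings were set beside these results, and their part in the hormone differences was not tested. Of 7 tested enteric neuron markers and 12 smooth muscle markers, 0 passed in either direction in limma, with median differences of 0.21 and 0.40. At an unadjusted p below 0.05, 1 neuron marker was higher in proximal colon and 0 smooth muscle markers differed. Under some alternatives 1 of each list was higher in proximal colon, among them leaving out rat 3 and the rat block. The neuron list means ran from 5.27 to 7.47 in proximal and 5.18 to 5.57 in distal colon, and Elavl4, Uchl1, Snap25 and Prph were among 8 neuron markers below the filter. Of 7 goblet cell markers, 3 were higher and 1 lower in proximal colon (median 0.11), with list means of 12.29 to 12.77 in proximal and 11.48 to 12.07 in distal colon. Spink4 and Zg16 had the largest differences, 2.83 and 1.87, while Muc2 differed by 0.20, Agr2 by 0.11, Tff3 by -0.41, Fcgbp by -0.11 and Clca1 by -0.03. Of 8 epithelial markers, Krt20 and Vil1 were higher in proximal colon (median 0.06). Of 5 leukocyte markers, Jchain was higher in proximal colon (median -0.32), with list means of 7.24 to 10.22 in proximal and 7.75 to 9.83 in distal colon.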

How the data were processed

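The deposited values are linear signal intensities, 1 per probe set. The authors computed these intensities with MAS5 (named in the submitters' processing notes), whose version and target level no source used here gives. Per the labels, 4.5 µg of RNA was used for each array. With 2% trimmed at each end, array means lay between 211.2 and 342.4, so log2(value + 16) was quantile normalized. Probe sets in the lowest 30% by mean (log2 below 5.54) were left out, and 21729 were tested. The pseudocount of 16 understates folds of genes with low signal. Symbols came from the annotation supplied with the array, which can be old: 20826 probe sets had 1 symbol, 436 several and 9780 were unnamed here. A gene was represented by its probe set with the highest mean.

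Proximal minus distal was tested with limma (version 3.58.1, R 4.3.3; lmFit, eBayes with trend), without a block, two-sided, with p adjusted by Benjamini-Hochberg over all 21729, after the step was tested on simulated data. Every adjusted p of a difference is from limma, and standard errors are its moderated ones. Adjusted p values of correlations come from exact permutations of pairings. Python 3.11.15, numpy 2.4.6, pandas 2.3.3, scipy 1.17.1 and matplotlib 3.10.9 were used for the rest. The members and the lists were chosen with earlier results of these data known. From each list, the text names up to 4 genes with the largest differences that passed and up to 2 with the highest signal, and others, such as Pax4, Enpep, Cpe, Ffar2 and Fcgbp, were chosen after their values were seen. Provisional symbols were passed over in the ranking of likeness. Likeness to Sst without the proximal array of rat 3, and the alternatives for the correlation between the arrays of a rat, were added after seeing the data.

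The number of arrays limits the precision. Rat numbers pair the arrays, since per the labels a number is an animal. Deviations from the region means correlated within rats with r from 0.000945 to 0.569 (median 0.226), against a median of -0.03 between rats. The r was above 0.1 in 6 of 9 rats. In only 4 of 9 rats was the distal array most like the proximal array the one of the same rat.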

Additional observations from a re-analysis of the deposited data

Results flagged for a closer look

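In a group of 9 arrays, an array was singled out when its gap to the nearest other array, as a share of the whole range, was above Dixon's 95% critical value. Of 104 groups examined, 9 had such an array. The groups were the 8 hormone genes with a probe set and the list genes that the naming rule gave, in each region. Pax4, Enpep, Cpe, Ffar2, Fcgbp and Epcam were therefore not among them. For a single group, chance gives about 1 in 20. The groups share the same arrays and most of the 9 came from rat 3, so their number does not measure an excess over chance. In the proximal array of rat 3, Sst had a log2 signal of 8.75 (7.02 to 7.76 in the other proximal arrays), Scg5 7.82 (5.86 to 6.60), Nmu 8.46 (6.83 to 7.48), Pam 10.90 (10.23 to 10.56), Myh11 13.20 (7.87 to 9.87) and Mylk 12.92 (10.54 to 11.13). Of these, Myh11 and Mylk are smooth muscle markers. In the distal array of rat 3, Nmu was low at 7.77 (8.40 to 8.68 in the other distal arrays). Ace was high in the proximal array of rat 6, at 8.85 (7.25 to 7.92 in the others), and Elavl3 was low in the proximal array of rat 2, at 5.24 (5.88 to 6.42 in the others). Without rat 3 the proximal minus distal difference was 1.27 for Sst, 0.51 for Scg5, -1.33 for Nmu and -0.79 for Pam, and without rat 6 it was 1.51 for Ace, all past the threshold in limma.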

How the results depend on the processing

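Gcg, Sst and Pyy stayed higher in proximal colon and past the threshold under all 19 alternatives, and Sct under 10 of the 19. The limma adjusted p values of Gcg, Sst and Pyy reached up to 0.0215, for Pyy without rat 5. Ghrl also kept its call under all 19, but it was tested only because of its signal in proximal colon. Its calls are therefore not read as support. Leaving out 1 rat gave 4 or 5 hormone genes past the threshold, Ghrl among them, and the rat block changed no call among the hormone genes. The block lowered the SE of Gcg from 0.25 to 0.10 and that of Pyy from 0.28 to 0.17. It also lowered the SEs of Cck, Gip and Sct, and raised that of Sst from 0.18 to 0.20 and that of Ghrl from 0.247 to 0.249. With the block, Mylk passed (adjusted p = 0.0205), and no other gene named by the rule gained or lost its call. The deposited scaling left 451 genes higher in distal colon, against 1853, and 1552 higher in proximal colon, against 1657. That scaling moved the median difference of all genes to 0.10, and median centring to -0.05, against -0.01. Cck, which did not pass under any alternative, turned to -0.00207 with median centring and ranged from -0.0530 to 0.15 when 1 rat was left out. Among genes that did not pass, Furin turned to 0.0291 and Myh11 to -0.0513 without the proximal arrays of rats 3 and 6, as did Krt19 (0.00266). Averaging its probe sets turned Elavl3 to 0.13. With the deposited scaling Clca1 was 0.12, Krt8 0.10, Krt19 0.11 and Cd74 0.0210. When 1 rat was left out, Nos1 ranged from -0.00609 to 0.14, Clca1 from -0.0626 to 0.00408 and Cd74 from -0.35 to 0.0867. Relations between hormone genes that passed numbered 2 with median centring, against 0. The correlation of Gcg between the arrays of a rat was 0.84 (adjusted p = 0.0505) with median centring and 0.81 (adjusted p = 0.212) without rats 3 and 6. The cause of these changes was not tested. Signals near the filter level limit what can be said of Gip, Nts and distal Ghrl.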
